A study of Mus musculus with 3 samples.

Results

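Stab2-positive sinusoidal endothelial cells were picked out of 3 single-cell RNA libraries of mouse bone marrow niche cells. A barcode counted as a called cell with at least 1000 unique molecular identifiers (UMIs, each standing for 1 captured RNA molecule), at least 500 genes and under 10% mitochondrial UMIs. It was Cdh5-gated with at least 1 UMI of Cdh5, the gene of the endothelial cadherin, at least 3 UMIs over the endothelial genes Cdh5, Egfl7, Esam and Cldn5, and 0 UMIs of the leukocyte gene Ptprc. Members were then chosen by their own Stab2 count: a gated cell with at least 1 UMI of Stab2, the gene of the scavenger receptor stabilin-2, was a member. The rule found 143 members among 2520 Cdh5-gated cells and 16318 called cells, with 18 in aGVHD, 76 in BMT and 49 in WT.

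Marrow sinusoids are wide, thin-walled, fenestrated vessels that drain into the central vein and through which blood cells leave the marrow. Their endothelium takes up macromolecules and cell debris through scavenger receptors such as Stab1, Stab2 and the mannose receptor Mrc1, and it carries the receptor Flt4. Stab2 is known in mouse marrow as a gene of sinusoidal rather than arterial endothelium.

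All 3 groups were female CB6F1 mice, the cross of BALB/c and C57BL/6, with 1 library per group. The aGVHD mice (acute graft-versus-host disease) were irradiated with 2 doses of 4.0 Gy. Marrow of B6.SJL (CD45.1+) donors followed after 4 hours, as 5000000 nucleated cells, together with 60000000 spleen cells of female C57BL/6 donors. The BMT mice (bone marrow transplantation) had the same irradiation and marrow without spleen cells, and the WT mice were untreated. In every group, cells stained for CD45, a lineage mix or CD71 were sorted out and live cells were kept by Calcein AM and DAPI, so shares describe what passed that sort. How many mice a library pools, and the day of collection, are not stated in the labels used here. With 1 library per group, no difference below has a replicate check and no test was run. Intervals are 95% intervals that cover counting error only. The comparison of aGVHD with BMT and that of BMT with WT share the BMT library.

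The library totals were 67439098 UMIs in aGVHD, 44219063 in BMT and 86575425 in WT. Members had a median of 9215.5 UMIs in aGVHD, 7975 in BMT and 4614 in WT, and their UMIs summed to 178032, 637825 and 422509. Other Cdh5-gated cells were shallower in aGVHD (median 2984.5) and BMT (4649) and about as deep in WT (4470.5). Of the WT members, 5 held over 20000 UMIs, against 1 in aGVHD and 1 in BMT. Among the highest doublet scores of each library were 0 members in aGVHD, 0 in BMT and 8 in WT, and all were kept. The part of member UMIs attributed to free RNA was 1.07% in aGVHD, 0.542% in BMT and 0.460% in WT. For other Cdh5-gated cells that part was 12.5%, 2.64% and 12.0%. The libraries shared 8 to 11 called barcodes in each pair and no member barcode, and 1 member barcode was a called barcode of another library in the pair of aGVHD and BMT.

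The label was checked against other sinusoidal genes than Stab2. Stab1 was detected in 17 of 18 members in aGVHD, 63 of 76 in BMT and 44 of 49 in WT. Flt4 was detected in 13, 49 and 37 of the same cells, and Mrc1 in 12, 58 and 40. Of 16 sinusoidal markers, 15 had UMIs in every library, and Lyve1 was at 0 in all 3. The 15 include Stab2, which every member holds by the rule. The defining macrophage genes C1qa, Adgre1 and Csf1r were at 0 in every library, and the 11 macrophage markers summed to 22.5, 20.4 and 30.8 CPM, the UMIs of a gene per 1000000 UMIs of the summed cells. Of the 7 lymphatic markers Ccl21a and Lyve1 were at 0 throughout. The lymphatic regulator gene Prox1 was at 33.7 CPM in aGVHD, 48.6 in BMT and 28.4 in WT, against 7.15, 15.6 and 51.8 in gated cells without Stab2. Mmrn1 was at 28.1, 97.2 and 118 CPM in members, and Flt4, also on this list, at 253, 299 and 334. The list summed to 315, 453 and 483 CPM in members and to 613, 614 and 2326 in gated cells without Stab2. Vwf, a gene of larger vessels, was at 22.5, 0 and 4.73 CPM. T and NK cell markers summed to 22.5 CPM in aGVHD and to 0 in BMT and WT.

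Markers of other cells were not at 0 everywhere. The 8 osteolineage markers summed to 11.2 CPM in aGVHD, 306 in BMT and 10106 in WT. The 8 LepR stromal markers summed to 89.9, 845 and 1617 CPM. In WT, 1 cell held 60.2% of the members' UMIs of the stromal chemokine gene Cxcl12, and in BMT 1 cell held 58.4%. Erythroid markers summed to 1511 CPM in aGVHD, 97.2 in BMT and 746 in WT, against 123800, 21255 and 135040 CPM in the empty droplets of those libraries. Alternatives that removed likely doublets or subtracted free RNA were run, and beyond those the part these RNAs play in the comparisons below was not tested.

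Stab2-positive cells were a smaller share of Cdh5-gated cells in aGVHD than in BMT or WT. They were 18 of 1200 gated cells in aGVHD, or 1.5% (exact Clopper-Pearson interval 0.891 to 2.36). They were 76 of 799 in BMT, or 9.51% (7.57 to 11.8), and 49 of 521 in WT, or 9.40% (7.04 to 12.2). The aGVHD interval overlapped neither of the other 2, and those of BMT and WT overlapped nearly whole. The share in aGVHD was 6.34 times lower than in BMT (3.82 to 10.5), with the ratio of BMT over WT at 1.01 (0.719 to 1.42).

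The denominator and the depth both bear on these shares. Cdh5-gated cells were 21.6% of called cells in aGVHD, 22.1% in BMT and 7.31% in WT. Members were therefore 0.323% of called cells in aGVHD (0.192 to 0.510), 2.10% in BMT (1.66 to 2.62) and 0.687% in WT (0.509 to 0.908), which puts BMT 3.05 times above WT on that base. Of the other gated cells, 1112 of 1182 in aGVHD, 659 of 723 in BMT and 255 of 472 in WT had a UMI of the capillary gene Gpihbp1. With each gated cell thinned to 3000 UMIs the share was 10 of 603 in aGVHD (1.66%), 54 of 623 in BMT (8.67%) and 32 of 365 in WT (8.77%). Shallower cells left out there were 2 members and 595 other gated cells in aGVHD, 8 and 168 in BMT and 8 and 148 in WT. With thinning to 5000 UMIs it was 3.89% of 257 cells in aGVHD, 12.5% of 391 in BMT and 6.88% of 218 in WT, so the ratio of aGVHD to BMT was 0.310 and that of BMT to WT 1.82. The ratio of aGVHD to WT was then 0.565, with an interval that holds 1 (0.259 to 1.23).

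**Figure D1:**
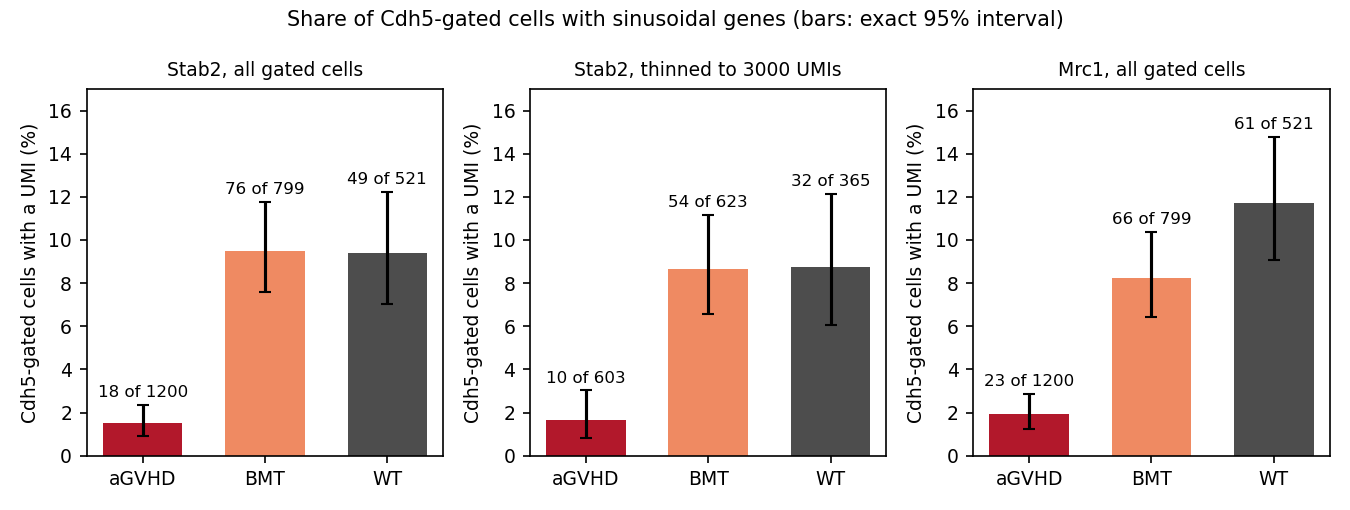
Share of Cdh5-gated cells with at least 1 UMI of Stab2, of Stab2 after thinning to 3000 UMIs, and of Mrc1 (vertical axes, percent), in aGVHD, BMT and WT from left to right; error bars are exact 95% binomial intervals and the counts stand above them. The aGVHD bar lies between 1.5% and 1.92% in the 3 panels and the BMT and WT bars between 8.26% and 11.7%.

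Genes that the rule did not use were counted in the same way. Mrc1 was detected in 23 of 1200 gated cells in aGVHD (1.92%, 1.22 to 2.86), 66 of 799 in BMT (8.26%, 6.45 to 10.4) and 61 of 521 in WT (11.7%, 9.08 to 14.8). Stab1 and Flt4 were detected together in 6.00% (4.72 to 7.50), 13.1% (10.9 to 15.7) and 19.6% (16.3 to 23.2) of gated cells. Adamts5 was detected in 6.33% (5.02 to 7.86), 15.9% (13.4 to 18.6) and 19.2% (15.9 to 22.8). The share in aGVHD was 4.31 times lower than in BMT for Mrc1 (2.70 to 6.87), 2.19 times for Stab1 with Flt4 (1.65 to 2.92) and 2.51 times for Adamts5 (1.92 to 3.29), against 6.34 times for Stab2. The ratios of BMT to WT of these 3 counts lay below that of Stab2. None of these counts was thinned, and gated cells without Stab2 were shallower in aGVHD than in BMT. Thinned to 3000 UMIs, Mrc1 was in 1.49% of gated cells in aGVHD, 7.87% in BMT and 11.2% in WT. Adamts5 was then in 36 of 587 gated cells without Stab2 in aGVHD, 41 of 555 in BMT and 40 of 324 in WT. Among members it was in 6 of 16, 33 of 68 and 26 of 41. Stab1 with Flt4 was not counted after thinning.

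Cells that should lack Stab2 gave the background. Among called cells with 0 UMIs of the 4 endothelial genes, a Stab2 UMI was found in 9 of 3321 cells in aGVHD (0.271%, 0.124 to 0.514) at a median of 8211 UMIs. It was found in 9 of 2420 in BMT (0.372%, 0.170 to 0.705) at 7971.5 UMIs and in 17 of 5827 in WT (0.292%, 0.170 to 0.467) at 7722 UMIs. The shares of gated cells with Stab2 stood above these in all 3 libraries. The margin was smallest in aGVHD, at 1.5% of gated cells against 0.271%. Thinned to 3000 UMIs, the background was 0 of 2792 cells in aGVHD, 2 of 2085 in BMT and 5 of 5213 in WT. How many of the 18 aGVHD members hold Stab2 only as background was not tested. Of gated barcodes removed by the mitochondrial limit alone, 0 of 26 in aGVHD, 7 of 24 in BMT and 6 of 25 in WT had a Stab2 UMI, and of those with a Ptprc UMI, 0 of 41, 2 of 30 and 1 of 9.

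Gated cells with 1 Stab2 UMI numbered 8 in aGVHD, 21 in BMT and 15 in WT, and Mrc1 was detected in 4, 10 and 9 of them. Cells with at least 2 Stab2 UMIs numbered 10, 55 and 34, with Mrc1 in 8, 48 and 31. Just outside, among cells with 0 Stab2 UMIs, Mrc1 was detected in 11 of 1182, 8 of 723 and 21 of 472. Adamts5 in aGVHD was at 42.5 CPM with 1 Stab2 UMI and 1324 CPM with at least 2.

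Within each library, the members differed from other Cdh5-gated cells in a set of genes beyond Stab2. Since Stab2 chose the cells, these values describe the profile and no more. Of 10584 genes with at least 50 UMIs, 269 (2.54%) were at least 1.5-fold higher in members and 182 (1.72%) at least 1.5-fold lower in all 3 libraries, with each interval excluding 1. After thinning to 3000 UMIs the counts were 169 and 79. The 10 ranked as higher included Stab2 itself, and the others were Lipg, Dnase1l3, Mrc1, Tfpi, Cxadr, Clca3a1, Abcc9, Ubd and Angptl4.

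Lipg, which encodes endothelial lipase, was at 410 CPM in aGVHD members, 166 in BMT and 258 in WT, against 4.17, 1.10 and 2.29 CPM in other gated cells. Dnase1l3, a secreted nuclease that digests DNA in chromatin, was 74.0-fold higher in aGVHD (38.1 to 153), 89.6-fold in BMT (45.6 to 201) and 146-fold in WT (55.2 to 547). Mrc1 was 87.2-fold (44.5 to 184), 175-fold (96.4 to 355) and 32.9-fold higher (22.6 to 49.4). Tfpi, the inhibitor of the tissue factor pathway, was 32.5-fold, 30.7-fold and 19.1-fold higher. Angptl4, a secreted inhibitor of lipoprotein lipase, was 13.3-fold, 29.7-fold and 19.6-fold higher.

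The remaining leading genes were a membrane channel, an adhesion protein and an immune gene. Abcc9, a subunit of potassium channels, was 53.2-fold higher in members of aGVHD, 35.4-fold in BMT and 16.6-fold in WT. Clca3a1 was 19.0-fold, 27.1-fold and 24.0-fold higher. Cxadr, which encodes a cell adhesion molecule, was at 33.7 CPM in aGVHD members with 4 of its 6 UMIs in 1 cell, 86.2 in BMT and 127.8 in WT, against 0.397, 1.32 and 0.762 CPM in other gated cells. Ubd, a ubiquitin-like modifier that interferon gamma induces, was 13.3-fold higher in aGVHD members, 45.2-fold in BMT and 71.9-fold in WT.

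Known sinusoidal genes outside the rule were higher by smaller margins. Stab1, a scavenger receptor, was 7.24-fold higher in members of aGVHD (5.54 to 9.36), 6.82-fold in BMT (5.80 to 8.02) and 4.58-fold in WT (3.84 to 5.45). Flt4, the receptor for VEGF-C, was 4.30-fold, 5.37-fold and 3.32-fold higher. Adamts5, a matrix-cleaving protease gene, was 19.6-fold, 6.73-fold and 14.8-fold higher. Vcam1, which binds integrins of blood cells, was 4.15-fold, 6.65-fold and 7.34-fold higher. Selp, the gene of P-selectin, was 11.7-fold higher in aGVHD and 5.29-fold in BMT. In WT its summed CPM in members was 0.830-fold that of other gated cells (0.704 to 0.973). Counted by cell, Selp was nevertheless detected in 33 of 49 WT members (67.3%) and in 116 of 472 other gated cells of WT (24.6%).

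The 8 ranked genes lower in members were Tcf15, Timp4, Cav1, Cdh13, Jam2, Bcam, C1qtnf9 and Podxl. Cav1, the coat protein of caveolae, was 7.72-fold lower in members of aGVHD, 11.4-fold in BMT and 12.6-fold in WT. Timp4, an inhibitor of metalloproteinases, was 49.6-fold lower in aGVHD, where 1 cell held all 7 UMIs, and 41.2-fold in BMT, and in WT members it was at 0 UMIs, at least 19.0-fold lower against a floor of 3 UMIs. Tcf15, a transcription factor of capillary endothelium, was at 0 UMIs in aGVHD members, at least 19.4-fold lower, and was 10.8-fold lower in BMT and 25.4-fold in WT on 2 UMIs. The capillary gene Gpihbp1 was 2.53-fold lower in aGVHD and 1.44-fold lower in BMT, and in WT it was 1.25-fold higher (1.10 to 1.43).

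**Figure D2:**
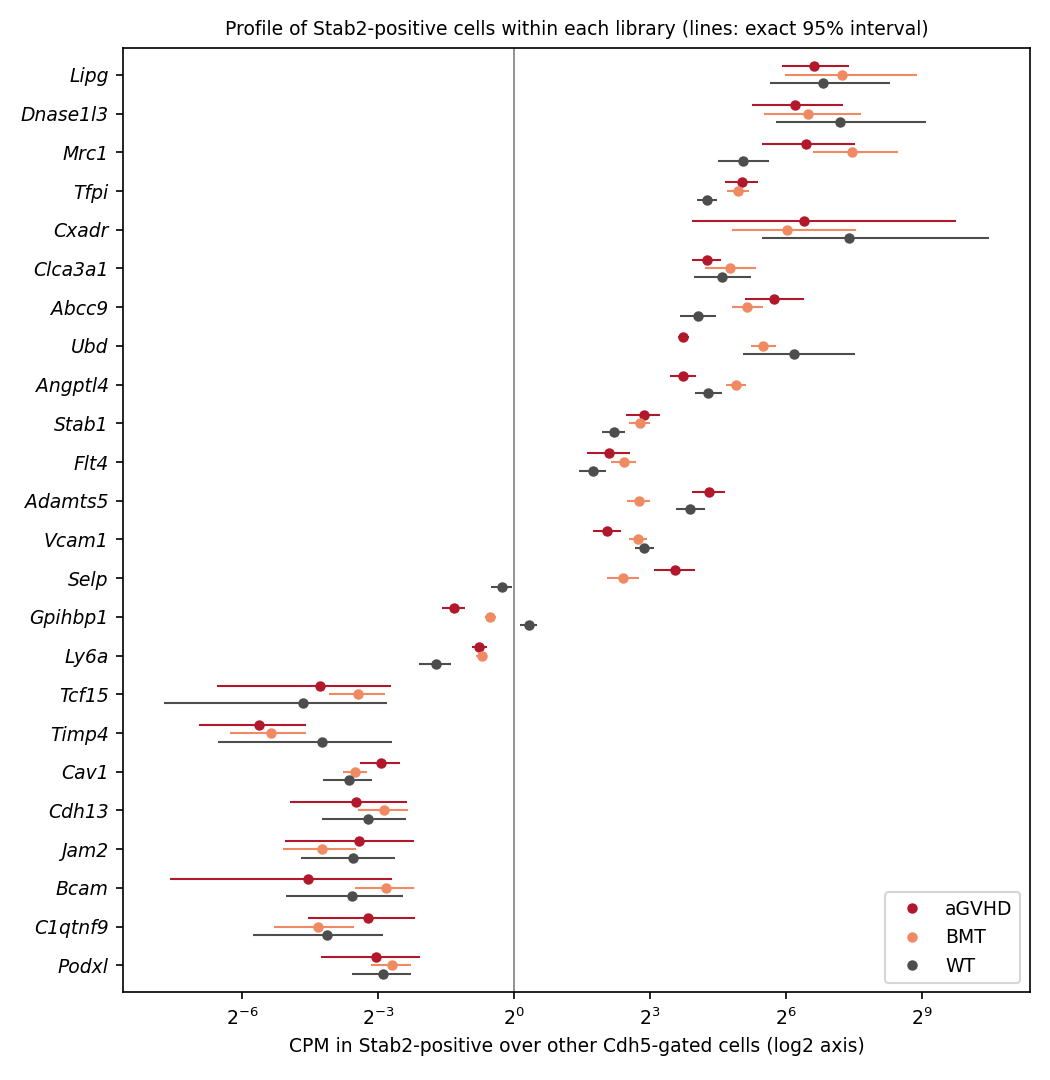
Ratio of CPM in Stab2-positive cells to that in other Cdh5-gated cells of the same library (horizontal axis, log2 scale), for the ranked genes without Stab2 and 7 further endothelial genes; points are aGVHD, BMT and WT from top to bottom within each gene and lines are exact 95% intervals, with a library at 0 UMIs set to 3. Stab1 lies between 4.58 and 7.24 in the 3 libraries, and Selp is above 1 in aGVHD and BMT only.

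Scavenging genes were then compared between the libraries, among members. The per-cell median of Stab1 was 2.73 UMIs per 10000 in aGVHD (range 0 to 26.8), 4.51 in BMT (0 to 28.2) and 6.03 in WT (0 to 31.1), and the cells of the 3 libraries overlapped widely. Summed over cells, Stab1 was at 421 CPM in aGVHD (331 to 528), 467 in BMT (416 to 523) and 537 in WT (470 to 612). Of 21 scavenging and endocytosis genes with at least 50 UMIs in BMT and WT together, 3 were at least 1.5-fold higher in BMT, 3 lower and 15 neither, with a median log2 ratio of -0.04 against 0.03 for all 3477 measured genes. Of all those genes, 14.6% were higher and 12.3% lower at that boundary. Of 18 measured for aGVHD over BMT, 2 were higher and 4 lower (median -0.16), against a median of -0.02 for all 2789 measured genes, of which 12.2% were higher and 18% lower. The lysosomal protease genes Ctsl and Lgmn were those higher in aGVHD, by 1.87-fold (1.65 to 2.10) and 2.01-fold (1.55 to 2.60).

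Individual sinusoidal markers differed by library. Mrc1 was at 208 CPM in aGVHD, 423 in BMT and 414 in WT, 2.04-fold lower in aGVHD than in BMT (1.44 to 2.96), but 1.73-fold lower with members of at least 2 Stab2 UMIs and 1.37-fold lower by the mean of each cell's CPM. Adamts5 was at 646 CPM in aGVHD, 383 in BMT and 660 in WT, and Il6st, the shared receptor of interleukin-6 cytokines, at 848, 530 and 880. Both were thus lowest in BMT. In aGVHD, 1 cell held 29.6% of the Adamts5 UMIs. Flt4 was at 253 CPM in aGVHD, 299 in BMT and 334 in WT, with ratios whose intervals held 1. Of 13 measured sinusoidal markers, 5 were lower and 0 higher in BMT than in WT, with a median log2 ratio of -0.33. Of 12 in aGVHD over BMT, 3 were higher, 2 lower and 7 neither. Over all measured genes, 14.6% were higher and 12.3% lower in BMT over WT, and 12.2% and 18% in aGVHD over BMT. The 2 of 12 lower thus lay near the share over all genes. Both marker counts include Stab2, which chose the members. The 2 markers lower in aGVHD over BMT were Stab2 (ratio 0.580) and Mrc1.

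**Figure D3:**
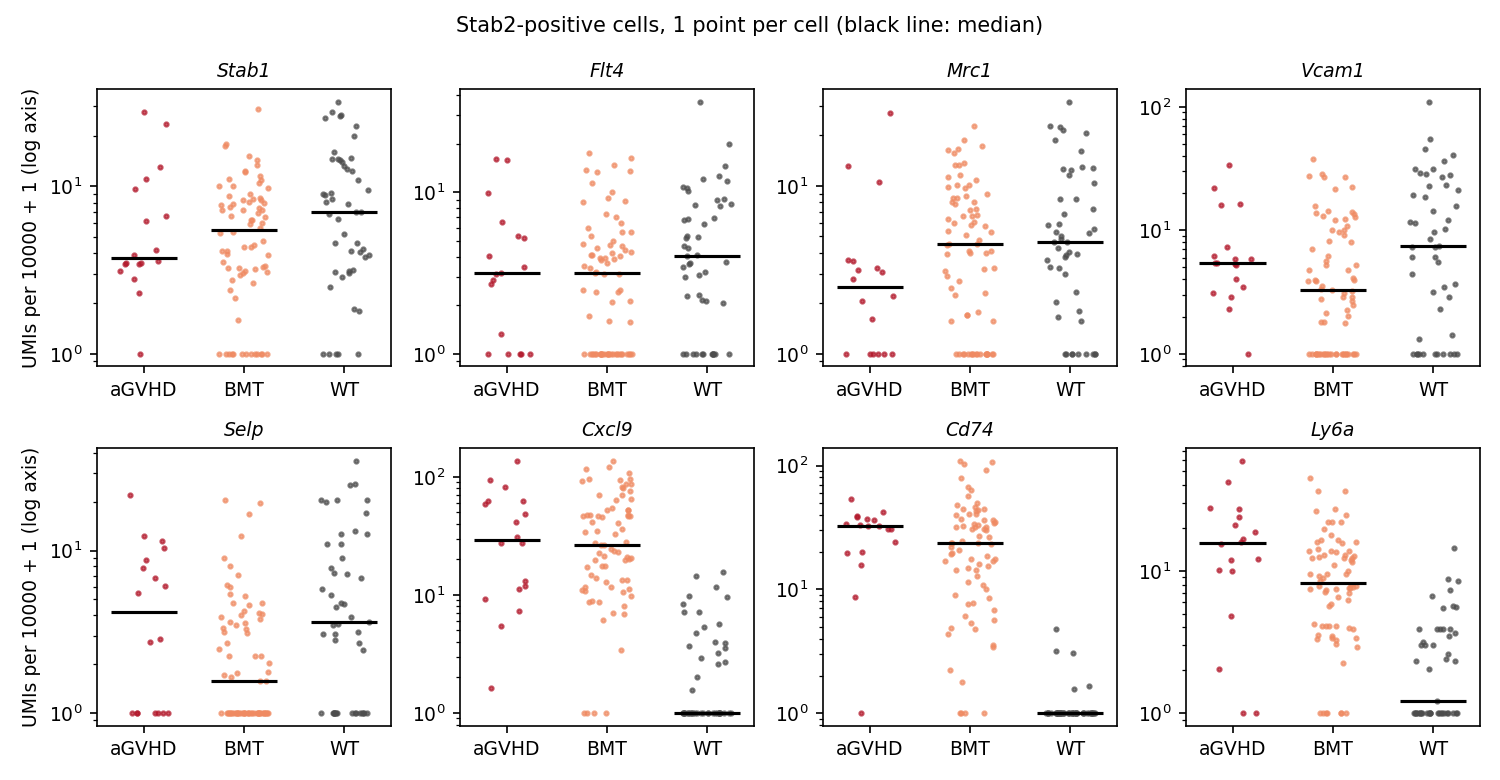
UMIs per 10000 plus 1 in each Stab2-positive cell (vertical axes, log scale), for 8 genes in aGVHD (18 cells), BMT (76 cells) and WT (49 cells) from left to right; black lines are medians. Cxcl9 and Cd74 have medians above 20 UMIs per 10000 in aGVHD and BMT and of 0 in WT, while Stab1, Flt4 and Mrc1 overlap in all 3 libraries.

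Antigen presentation and interferon genes separated BMT members from WT members. A gene passed the size rule with at least 50 UMIs over both libraries, a difference of at least 2-fold, an interval excluding 1 and, on its higher side, at least 2 times the CPM of that library's empty droplets. For BMT over WT, 127 of 3477 measured genes (3.65%) were higher and 34 (0.978%) lower. The 8 higher genes whose nearer interval bound lay farthest from 1 were Cd74, H2-Eb1, H2-Aa, H2-Ab1, Cxcl9, Tgtp2, Gbp7 and Gbp4.

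Cd74 (ENSMUSG00000024610, chromosome 18, 60803848 to 60812652), the invariant chain gene of MHC class II, was detected in 72 of 76 BMT members and 5 of 49 WT members. The median cell held 22.5 UMIs per 10000 in BMT (range 0 to 108) and 0 in WT (0 to 3.77). Summed over members, BMT had 2397 CPM and WT 16.6, a 145-fold ratio (70.1 to 360). Other Cdh5-gated cells had 386 CPM of Cd74 in BMT and 21.3 in WT. In aGVHD members it was at 2837 CPM.

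The MHC class II genes behaved alike. H2-Ab1 (chromosome 17, 34257689 to 34269419), which encodes a class II chain, stood at 671 CPM in BMT against 11.8 in WT, 56.7-fold higher (24.1 to 176). H2-Aa had 2 UMIs in WT and was 105-fold higher (28.8 to 871), and H2-Eb1 had 1 UMI in WT and was 207-fold higher (36.9 to 8215). These genes resemble each other and differ between the parental strains, so a UMI can be credited to the wrong one. All 6 measured class II genes were higher, with a median log2 ratio of 6.27. Of 14 MHC class I genes 14 were higher, with a median of 2.31. The class I genes H2-K1 (4.18-fold), H2-D1 (3.27-fold) and B2m (2.88-fold) did not pass the size rule, because BMT empty droplets held H2-K1 at 2919 CPM against 4029 in BMT members.

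Cxcl9 (ENSMUSG00000029417, chromosome 5, 92321347 to 92328079), a chemokine gene that attracts T cells, was detected in 72 of 76 BMT members and 21 of 49 WT members. BMT had 3579 CPM and WT 225, a 15.9-fold ratio (13.0 to 19.8), and 1 cell held 41.1% of the WT UMIs. The GTPase genes Gbp7 (439 CPM in BMT and 28.4 in WT, 15.5-fold), Gbp4 (417 and 28.4, 14.7-fold) and Tgtp2 (174 and 4.73, 36.8-fold) act in the defence of cells against pathogens. Gbp and Tgtp genes have close paralogs, so their assignment is uncertain. Ubd was at 1290 CPM in BMT and 192 in WT, 6.73-fold higher (5.35 to 8.56).

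Taken by list, BMT exceeded WT by at least 1.5-fold in 21 of 23 measured genes of the interferon gamma response and fell below it in 0, and the median log2 ratio was 2.74. For the type I response it was 17 of 17 genes and a median of 2.29, among them Irf7 at 190 and 7.10 CPM, Bst2 at 1386 and 284 CPM and Ifitm3 at 3024 and 1238 CPM. Among all measured genes of members, 14.6% were higher and 12.3% lower. In other Cdh5-gated cells, 27 of 29 interferon gamma genes and 24 of 25 type I genes were higher, with medians of 2.13 and 1.79, where 14.1% of all measured genes of those cells were higher and 12.8% lower. These counts do not apply the empty-droplet limit. Past the size rule, which does, 10 interferon gamma and 6 type I genes were higher in members. In other gated cells 7 and 6 were. The difference between the cell groups was not tested.

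The stretches before the start sites of 3 of these genes are shown because interferon-activated factors bind short motifs there. Of 32 interferon gamma response genes with a value, 23 had a promoter in the RefSeq table for GRCm38.p6, and the 250 bases before the start site were searched on both strands. The core of the interferon-stimulated response element, which is GAAA, any 2 bases and GAAA again, or the reverse complement, was present in 11 of 23 (47.8%), and the gamma-activated site, TTCNNNGAA, which reads alike on both strands, in 10 (43.5%). Among all 27025 promoters they were present in 3.04% and 7.18%. Of 20 type I response genes with a promoter, 10 held the first motif and 3 the second, of 14 MHC class I genes 3 and 2, and of 6 MHC class II genes 0 and 1. Genes were taken in order of member UMIs among those past the size rule, and the 3 shown are the first with a promoter and a match. Cxcl9, Ubd and Tap1, which have more UMIs than some of them, held neither set of letters in this window. Capitals mark both motifs, which overlap in none of the 3, and adjoining or overlapping matches run together.
Gbp7, chr3:142530086-142530335, plus strand: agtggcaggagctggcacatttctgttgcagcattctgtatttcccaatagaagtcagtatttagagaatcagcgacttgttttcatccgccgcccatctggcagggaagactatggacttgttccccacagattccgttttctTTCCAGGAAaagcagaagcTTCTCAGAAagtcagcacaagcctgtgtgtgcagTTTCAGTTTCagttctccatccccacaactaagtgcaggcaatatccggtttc
Gbp3, chr3:142559794-142560043, plus strand: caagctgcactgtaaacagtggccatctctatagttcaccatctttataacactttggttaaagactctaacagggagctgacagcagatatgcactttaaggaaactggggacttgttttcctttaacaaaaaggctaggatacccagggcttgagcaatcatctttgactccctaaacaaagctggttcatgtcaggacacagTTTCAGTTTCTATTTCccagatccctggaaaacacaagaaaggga
Tgtp2, chr11:49064213-49064462, minus strand: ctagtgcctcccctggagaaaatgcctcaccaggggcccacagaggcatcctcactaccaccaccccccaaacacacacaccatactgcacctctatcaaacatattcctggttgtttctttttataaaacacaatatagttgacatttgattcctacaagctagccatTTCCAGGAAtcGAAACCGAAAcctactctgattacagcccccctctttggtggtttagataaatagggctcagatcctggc
The Gbp7 stretch has 2 gamma-activated sites and 1 response element core, that of Gbp3 has 2 overlapping cores, and that of Tgtp2 has 1 of each. A match describes the letters and does not show binding.

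Genes lower in BMT than in WT were fewer, and several rested on few cells. Those named by rank were Car1, Ptgs2, Aqp1, Nrep, Mylip, Cdkn1c, Apoe and Ackr1. All 55 WT UMIs of the erythroid gene Car1 were in 1 cell, and without the top cell of each library neither BMT nor WT members held a UMI of it. Ptgs2, the cyclooxygenase-2 gene, was at 0 UMIs in BMT and 66 UMIs in 3 WT cells. It was at least 33.2-fold lower, and without the top WT cell at least 10.9-fold lower, where it no longer passed the size rule.

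The venular marker genes were detected in more cells. Ackr1, a chemokine-binding receptor of venules, was detected in 17 of 76 BMT members and 28 of 49 WT members, at 61.1 CPM in BMT and 208 in WT, 3.41-fold lower (2.31 to 5.10). Aqp1, a water channel gene, was at 113 CPM in BMT and 604 in WT, 5.35-fold lower (4.10 to 7.05), while in other gated cells it was at 2340 and 1625 CPM. Selp was at 188 CPM in BMT and 409 in WT, 2.18-fold lower (1.71 to 2.77), and Lrg1, a secreted glycoprotein gene, at 395 and 840 CPM, 2.13-fold lower (1.80 to 2.51). Of 8 measured venular markers, 6 were lower, 0 higher and 2 neither, with a median log2 ratio of -0.93. The fall was not particular to members: in other gated cells 8 of 9 were lower and 0 higher, with a median of -2.61. Of all measured genes, 12.3% were lower in members and 12.8% in other gated cells. Mylip, a ligase that degrades lipoprotein receptors, was 3.41-fold lower (2.56 to 4.60), and Cdkn1c, a cell cycle inhibitor, 3.37-fold lower (2.54 to 4.49). Apoe, an apolipoprotein gene, was at 720 and 1879 CPM, and WT empty droplets held it at 895 CPM.

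Ly6a, the Sca-1 antigen gene, was higher in BMT than in WT. It was detected in 69 of 76 BMT members and 25 of 49 WT members, at 1041 CPM in BMT and 175 in WT, 5.94-fold higher (4.67 to 7.66). Without likely doublets the ratio was 11.2. It was 4.77 (3.60 to 6.44) when members needed at least 2 Stab2 UMIs and 6.32 (4.87 to 8.33) without the top cell of each library, and in neither case did it pass the size rule. The aGVHD members had 1820 CPM. Apln, the gene of the vessel growth peptide apelin, was at 107 CPM in BMT and 7.10 in WT on 3 UMIs, a ratio of 15.0 (4.92 to 74.6).

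**Figure D4:**
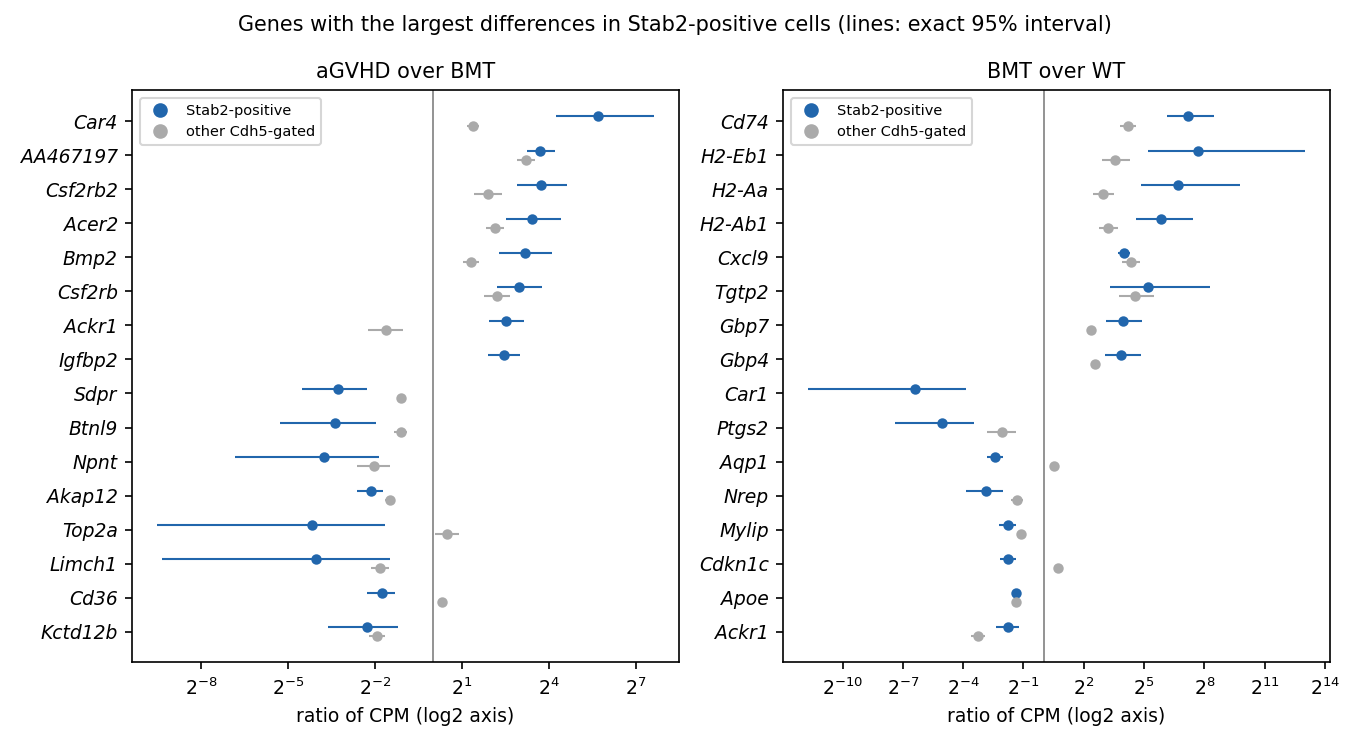
Ratios of CPM (horizontal axes, log2 scale) for the 16 ranked genes of each comparison, aGVHD over BMT at left and BMT over WT at right, in Stab2-positive cells (blue) and in other Cdh5-gated cells (grey, drawn where at least 50 UMIs were measured); lines are exact 95% intervals and 0 UMIs were set to 3. Ackr1, Top2a and Cd36 in the left panel and Aqp1 and Cdkn1c in the right panel lie on opposite sides of 1 in the 2 cell groups.

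For aGVHD over BMT, 88 of 2789 measured genes (3.16%) were higher and 100 (3.59%) lower by the size rule. With 18 aGVHD cells, a single cell weighs heavily. The genes named by rank as higher were Car4, AA467197, Csf2rb2, Acer2, Bmp2, Csf2rb, Ackr1 and Igfbp2.

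Car4 (ENSMUSG00000000805, chromosome 11, 84957786 to 84966044), a carbonic anhydrase on capillary endothelium, was detected in 12 of 18 aGVHD members and in 1 of 76 BMT members. Members had 326 CPM in aGVHD and 6.27 in BMT, a 51.9-fold ratio (19.2 to 197), and other gated cells 143 and 55.3 CPM. AA467197 was detected in 11 of 18 and 20 of 76 members, at 944 and 72.1 CPM, 13.1-fold higher (9.39 to 18.5), and 2.56-fold higher when members needed at least 2 Stab2 UMIs. Csf2rb and Csf2rb2, which encode receptor chains for the cytokines GM-CSF and interleukin-3, were 7.82-fold (4.63 to 13.6) and 13.2-fold higher (7.50 to 24.6). They are near-identical copies, so reads may be split between them. Acer2, a ceramidase gene, was 10.7-fold higher (5.75 to 21.3) in 13 of 18 cells against 11 of 76. Bmp2 was 8.96-fold higher, with 67.5% of its aGVHD UMIs in 1 cell, and 3.97-fold higher without the top cells.

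Ackr1 took opposite directions in the members and the other gated cells. Among members it was detected in 8 of 18 aGVHD cells and 17 of 76 BMT cells, at 354 CPM in aGVHD and 61.1 in BMT, 5.79-fold higher (3.82 to 8.86), with 41.3% of the aGVHD UMIs in 1 cell. In other gated cells it was at 6.55 CPM in aGVHD and 20.2 in BMT. Lrg1 was at 1078 CPM in aGVHD members and 395 in BMT members, 2.73-fold higher (2.25 to 3.31), and Selp at 337 and 188 CPM, 1.79-fold higher (1.29 to 2.46). Igfbp2, a binding protein of insulin-like growth factors, was at 410 CPM in aGVHD and 75.3 in BMT, a ratio of 5.45 (3.73 to 8.01).

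Most measured receptors and partners of vascular growth factors were lower in aGVHD than in BMT. Of 10 measured VEGF and angiopoietin signalling genes, 8 were lower, 0 higher and 2 neither, with a median log2 ratio of -0.80, while in BMT over WT 2 of 11 were higher and 2 lower (median -0.11). All measured genes of members had 18% lower and 12.2% higher in aGVHD over BMT, and 12.3% and 14.6% in BMT over WT. Kdr, the main VEGF receptor, was at 449 CPM in aGVHD and 842 in BMT, 1.87-fold lower (1.48 to 2.40). Nrp1, its coreceptor, was at 303 and 676 CPM, 2.23-fold lower (1.68 to 3.01), and Nrp2 at 225 and 467 CPM, 2.08-fold lower (1.49 to 2.97). Tek, the angiopoietin receptor, had a ratio of 0.499 (0.239 to 0.942) on 11 aGVHD UMIs. With members of at least 2 Stab2 UMIs, Nrp1 was 1.70-fold and Tek 1.63-fold lower, so neither passed the size rule there. The ligand genes Angpt2 and Pgf, named after their values were seen, were under the minimum of 50 UMIs and went the other way. Angpt2 had 25 UMIs in aGVHD and 21 in BMT, a ratio of 4.27 (2.29 to 8.01), and Pgf 20 and 2, a ratio of 35.8 (8.70 to 316). In other gated cells 8 of 16 genes of this list were lower and 3 higher, with a median of -0.51, where 14.4% of all measured genes of those cells were lower and 9.13% higher.

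The genes named by rank as lower in aGVHD were Sdpr, Btnl9, Npnt, Akap12, Top2a, Limch1, Cd36 and Kctd12b. Sdpr, a caveola protein gene, was detected in 5 of 18 aGVHD members and 54 of 76 BMT members, at 44.9 and 434 CPM, 9.66-fold lower (4.84 to 22.6). Btnl9 was at 22.5 and 230 CPM, 10.3-fold lower (3.92 to 38.1), and Npnt, a matrix ligand of integrins, at 11.2 and 152 CPM, 13.5-fold lower (3.65 to 113). Akap12, a scaffold protein of kinase A, was at 258 and 1137 CPM, 4.40-fold lower (3.26 to 6.06). Cd36, a fatty acid and thrombospondin receptor, was at 242 and 823 CPM, 3.41-fold lower (2.49 to 4.77), whereas in other gated cells it was at 2243 CPM in aGVHD and 1793 in BMT. Top2a and Limch1 had 1 aGVHD UMI each, and without the top cells, with aGVHD set to the floor, they were at least 4.51-fold and 3.81-fold lower, where neither passed the size rule. With members of at least 2 Stab2 UMIs, and aGVHD again set to the floor, Top2a was at least 3.01-fold lower and did not pass it either.

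Interferon genes were compared next. In aGVHD, 10 of 27 measured genes of the interferon gamma response exceeded BMT by at least 1.5-fold and 1 fell below it (median log2 ratio 0.29). Ubd was at 4246 CPM in aGVHD and 1290 in BMT, 3.29-fold higher (2.98 to 3.64), and Cxcl10, a T cell chemokine, at 2146 and 696 CPM, 3.08-fold higher (2.68 to 3.54), with 36.4% of its aGVHD UMIs in 1 cell. Gbp2 was 2.96-fold higher (2.36 to 3.70). Cxcl9, at 3831 and 3579 CPM, had a ratio of 1.07 (0.981 to 1.17). Of 18 type I interferon response genes 0 were higher, 6 lower and 12 neither (median -0.39), with Rsad2 at 61.8 and 234 CPM. The MHC class I list had 1 of 14 higher and 0 lower (0.03), and all 6 MHC class II genes lay within 1.5-fold (0.23). Among all measured genes of members, 12.2% were higher and 18% lower. In other gated cells, 24 of 30 interferon gamma genes and 6 of 6 class II genes were higher, with medians of 1.08 and 1.51, against 9.13% of all measured genes there. These list counts do not apply the empty-droplet limit. Past the size rule, 15 of those interferon gamma genes and 1 of those class II genes were higher in other gated cells. Among members, 5 interferon gamma genes were.

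The chemokine list holds ligands and scavenging receptors, and some members rested on few cells. Ccl2, which attracts monocytes, was detected in 8 of 18 members in aGVHD, 17 of 76 in BMT and 7 of 49 in WT, at 1376, 630 and 54.4 CPM. Its ratio of aGVHD over BMT was 2.18 (1.86 to 2.57), or 1.74 without the top cells, with 48.6% of the aGVHD UMIs in 1 cell. Its BMT level lay under 2 times the 404 CPM of the empty droplets. Cxcl2, which attracts neutrophils, was at 562 CPM in aGVHD, 224 in BMT and 21.3 in WT. Of 7 measured chemokine genes 5 were higher and 1 lower in aGVHD over BMT (median 1.13), and 5 were higher and 2 lower in BMT over WT (2.37). The lower genes of both comparisons include Cxcl12, whose level lay below the empty droplets of each library. Among all measured genes, 12.2% were higher and 18% lower in the first comparison, and 14.6% and 12.3% in the second.

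Adhesion, clotting and barrier genes went in mixed directions. At the 1.5-fold boundary, 12.2% of all measured genes were higher and 18% lower in aGVHD over BMT. In BMT over WT, 14.6% were higher and 12.3% lower. The 2 of 13 lower junction genes and 2 of 14 higher haemostasis genes below lay near these shares. Of 12 leukocyte adhesion genes, 4 were higher and 3 lower in aGVHD over BMT (median 0.37), and 3 were higher and 4 lower in BMT over WT (0.09). Vcam1 was at 595 CPM in aGVHD, 633 in BMT and 973 in WT, and Icam1 at 247, 307 and 289. Sele, the E-selectin gene, was at 84.3, 133 and 128 CPM. Madcam1, an integrin ligand, was at 80.0 CPM in BMT and at 0 UMIs in aGVHD and WT. Of 14 haemostasis genes, 2 were higher and 5 lower in aGVHD over BMT (-0.31), and 4 were higher and 1 lower in BMT over WT (0.25). F8, the gene of clotting factor VIII, was at 208 CPM in aGVHD, 430 in BMT and 286 in WT, and Thbd, an anticoagulant receptor, at 73.0, 188 and 343. Of 13 junction and barrier genes, 0 were higher and 2 lower in aGVHD over BMT (0.16), and 4 were higher and 0 lower in BMT over WT (0.42). This list includes Cdh5, Cldn5 and Esam, which the gate used. The 2 lower genes were the gate gene Cldn5 (ratio 0.586) and Jup (0.341). Plvap, a protein of fenestral diaphragms, was at 1949, 1424 and 1008 CPM.

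Targets of p53, the factor that responds to DNA damage, were measured too. Of 12 p53 targets, 8 were higher and 1 lower for BMT over WT, with a median log2 ratio of 1.03, and of 11 in aGVHD over BMT 0 were higher and 5 lower (-0.58). All measured genes had 14.6% higher and 12.3% lower in BMT over WT, and 12.2% and 18% in aGVHD over BMT. Cdkn1a, a p53-induced cell cycle inhibitor, was at 579 CPM in aGVHD, 967 in BMT and 409 in WT, with a BMT over WT ratio of 2.36 (1.99 to 2.81). With likely doublets removed that ratio was 1.79, and as a mean of each cell's CPM 1.52. Bax was at 309, 329 and 130 CPM and Gdf15, a stress cytokine, at 11.2, 151 and 68.6. Of the cell cycle list, 1 of 7 was higher and 1 lower in BMT over WT (-0.03), and 0 of 6 higher and 2 lower in aGVHD over BMT (-0.55).

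The niche factor list had few measurable members. Of 7 measured in BMT over WT, 1 was higher and 2 lower (median 0.08), and of 5 in aGVHD over BMT, 1 was higher and 3 lower (-1.05). The shares over all measured genes were 14.6% higher and 12.3% lower, then 12.2% higher and 18% lower. Kitl, the stem cell factor gene, was at 56.2 CPM in aGVHD, 136 in BMT and 75.7 in WT, against 398, 851 and 335 CPM in other gated cells. Cxcl12 was at 11.2, 524 and 998.8 CPM, below the empty droplets of each library at 1225, 3236 and 1832 CPM, so no difference is read from it. It is nevertheless among the lower genes of both counts above and enters both medians. The gene higher in aGVHD over BMT was Bmp2, with most of its aGVHD UMIs in 1 cell.

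The remaining lists are given for aGVHD over BMT and then BMT over WT, with median log2 ratios in parentheses. All measured genes had 12.2% higher and 18% lower, then 14.6% higher and 12.3% lower. Lipid handling genes had 1 of 12 higher and 6 lower (-0.48), then 5 of 12 higher and 1 lower (0.51). Lpl was at 33.7 CPM in aGVHD, 168 in BMT and 109 in WT. Basement membrane and matrix genes had 2 of 16 higher and 7 lower (-0.43), then 3 of 18 higher and 6 lower (-0.05). Hypoxia and glycolysis genes had 4 of 10 higher and 0 lower (0.44), then 1 of 11 higher and 3 lower (-0.06). Notch genes had 1 of 6 higher and 1 lower (0.03), then 0 of 9 either way (-0.30). NF-kB response genes had 3 of 14 higher and 2 lower (0.19), then 4 of 13 higher and 1 lower (0.23). Immediate early genes had 0 of 16 higher and 2 lower (-0.17), then 3 of 16 higher and 1 lower (0.27). Immune checkpoint genes had 1 of 4 higher and 1 lower (0.08), then 2 of 3 higher (1.26).

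aGVHD members were also set against WT members directly. Of 2086 measured genes, 129 (6.18%) were higher and 76 (3.64%) lower by the size rule, and 17.7% were higher and 19.7% lower at 1.5-fold. The interferon gamma list had 20 of 22 genes higher and 0 lower (median log2 ratio 2.92), MHC class II 4 of 4 higher (6.99), and VEGF and angiopoietin signalling 0 of 9 higher and 6 lower (-0.65).

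**Figure D5:**
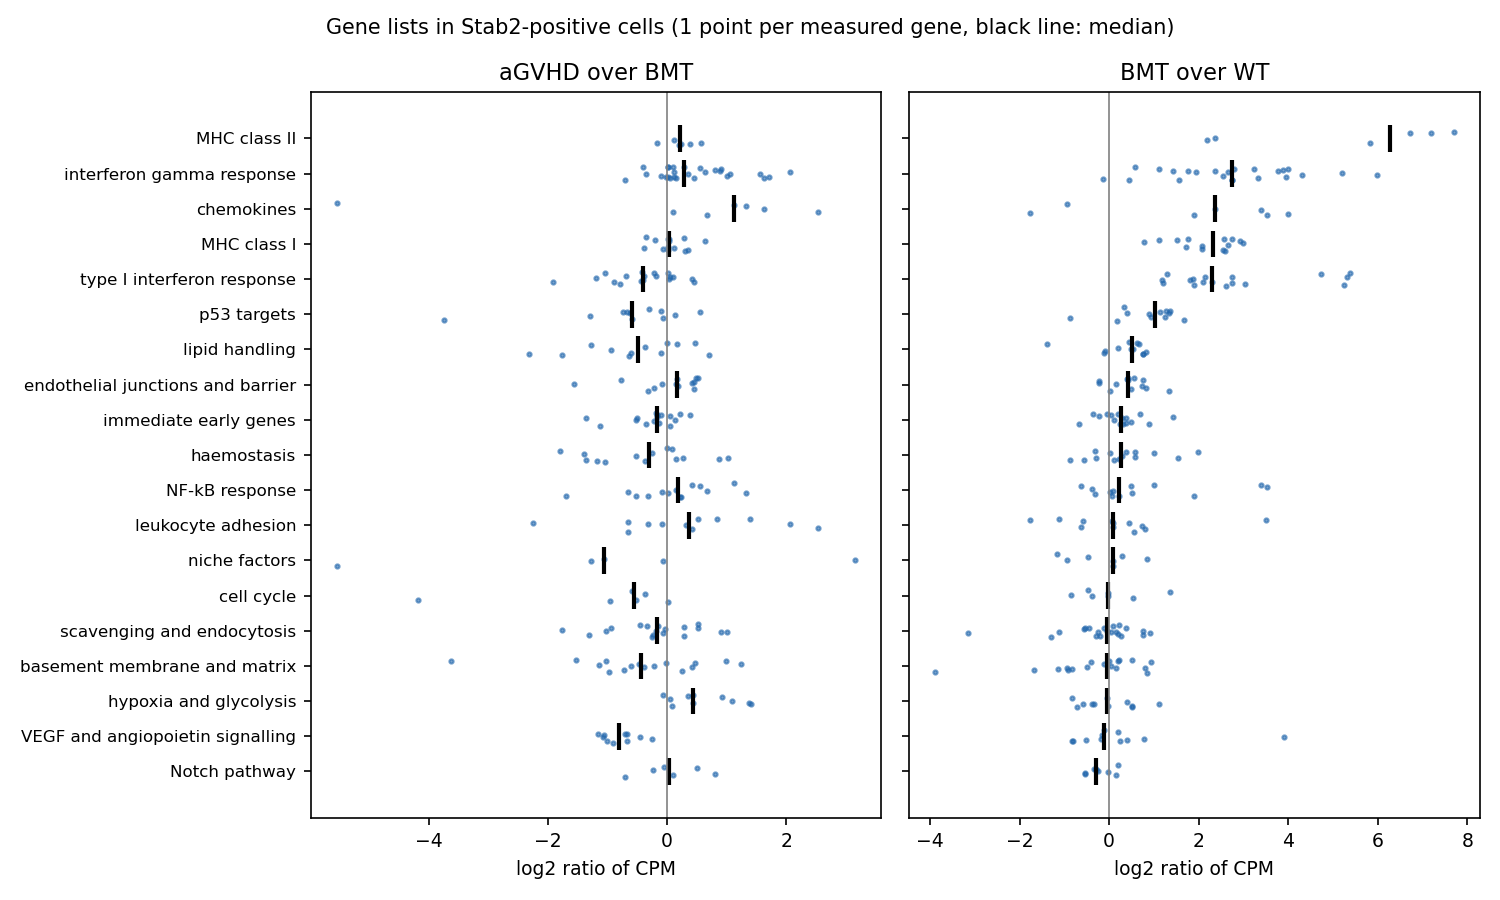
Log2 ratio of CPM in Stab2-positive cells for each measured gene (points) of the pathway lists measured in every comparison, with list medians as black lines, for aGVHD over BMT at left and BMT over WT at right. MHC class II genes have medians of 0.23 at left and 6.27 at right, and VEGF and angiopoietin signalling genes -0.80 and -0.11.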

How the data were processed

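Single-cell RNA was measured in 3 libraries, 1 each for aGVHD, BMT and WT. The authors deposited raw counts, unnormalised whole-number UMI tallies, written by Cell Ranger 3.1.0 per the file headers. Per the submitters' processing notes, Cell Ranger, Seurat and the mm10 build were used. Each matrix lists 27998 genes and 6794880 barcodes, so cells had to be called.

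Barcodes were selected by the rule given at the start of the results. Member UMIs were summed per library and expressed as CPM, with exact Poisson intervals. Ratios of CPM carry exact intervals conditional on the summed counts, share ratios use a log-normal approximation for theirs, and a gene at 0 was set to a floor of 3 UMIs. A list's median covers its members with at least 50 UMIs over both libraries. Neither that median nor the list counts at 1.5-fold apply the empty-droplet limit. Empty droplets were barcodes of at most 100 UMIs, and free RNA was estimated from haemoglobin and granule genes. Likely doublets were the highest Scrublet scores (scanpy 1.11.5), at 0.8% per 1000 cells, and were kept except in an alternative. Thinning used seed 1. Python 3.11.15, numpy 2.4.6 and scipy 1.17.1 were used, and gene positions come from GENCODE M21. Ratios and intervals were tested on simulated Poisson sums, without variation between cells and without the empty-droplet limit. That test therefore cannot speak to genes whose UMIs lie largely in 1 cell.

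Named genes were the 8 higher and 8 lower of each comparison past the size rule by the interval bound nearest to 1, the 10 higher and 8 lower of the profile, the 4 members of each list with most UMIs, and a fixed set. Other list genes named in the text were chosen after their values were seen. Ribosomal, mitochondrial, haemoglobin and unnamed genes were left out. The members and lists were chosen with earlier results of these data known. A result for 1 gene is not reported here.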

Additional observations from a re-analysis of the deposited data

Results flagged for a closer look

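Among the named genes, 3 differed in opposite directions in the member cells and the other Cdh5-gated cells of the same 2 libraries. Members had to pass the size rule, and other gated cells to differ by at least 1.5-fold with an interval excluding 1. Genes that were not named were not searched. None of these differences was tested, since each group had 1 library.

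Ackr1 had a log2 ratio of aGVHD over BMT of 2.53 in Stab2-positive cells and -1.62 in other gated cells. The levels were 354 CPM in aGVHD and 61.1 CPM in BMT members, against 6.55 and 20.2 CPM in the other cells. Of the aGVHD member UMIs, 41.3% were in 1 cell.

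Cdkn1c had a log2 ratio of BMT over WT of -1.75 in Stab2-positive cells and 0.72 in other gated cells. The levels were 116 CPM in BMT and 391 CPM in WT members, against 206 and 125 CPM in the other cells. Of the WT member UMIs, 29.1% were in 1 cell.

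Car1 had a log2 ratio of BMT over WT of -6.38 in Stab2-positive cells and 4.66 in other gated cells, with 1.57 CPM in BMT and 130 CPM in WT members, all of the WT UMIs in 1 cell. The other gated cells had 9.66 CPM in BMT and 0.381 in WT, on 44 UMIs and 1 UMI, which together are under the minimum of 50 used for measured genes.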

How the results depend on the processing

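No paired analysis was possible because each group has 1 library. The share ratio of BMT over WT was 1.82 after thinning to 5000 UMIs, 0.706 with Mrc1 in place of Stab2 (0.700 thinned to 3000 UMIs) and 3.05 with all called cells as denominator. The ratio of aGVHD over BMT was 0.310 after thinning to 5000 UMIs. That of aGVHD over WT was 0.159, and 0.565 after thinning to 5000 UMIs and 0.470 with all called cells as denominator. The other 23 share ratios of these alternatives stayed within the 95% interval of the ratio as reported. Profile counts were 169 higher and 79 lower after thinning to 3000 UMIs.

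Genes higher in BMT over WT numbered 205 with at least 20 UMIs, 55 with at least 100 and 205 with no empty-droplet limit. Those lower numbered 71 with likely doublets removed, 76 with the mean of each cell's CPM, 107 with at least 20 UMIs, 11 with at least 100 and 148 with no empty-droplet limit. For aGVHD over BMT, genes higher numbered 194 with at least 20 UMIs and 40 with at least 100. Those lower numbered 45 with at least 100 UMIs, 43 with Stab2 of at least 2 UMIs and 175 with no empty-droplet limit.

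With the mean of each cell's CPM, the BMT over WT medians were -0.51 for NF-kB response, -0.22 for immediate early and 1.75 for immune checkpoint genes (1.56 without the top cell of each gene). The aGVHD over BMT median of immediate early genes was then 0.24, and 0.41 with Stab2 of at least 2 UMIs, which gave -0.42 for MHC class II. The other 270 list medians stayed within the interval of the median as reported, which is taken from the ranked ratios of the list's genes. Among values of single genes, 1615 stayed within the interval of the ratio as reported, 295 moved outside it and 1 reversed: Cxadr in aGVHD over BMT was at a log2 ratio of -1.36, and 0.29 with the mean of each cell's CPM. The causes of these shifts were not tested. Alternatives using Mrc1, called cells or left-out top cells were chosen after seeing the data. With likely doublets removed, Ccnd1 and Cdkn1a in BMT over WT were 1.93-fold and 1.79-fold higher and did not pass the size rule, nor did Tek in aGVHD over BMT with free RNA subtracted, at a ratio of 0.501. For a gene at 0 in the 18 aGVHD members, the floor of 3 UMIs is 16.9 CPM.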
